A study of Mus musculus with 6 samples.

Results

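The histone cluster genes are the genes that supply the cell with the histones of newly made chromatin. They were chosen by name, as every symbol in the count tables that starts with Hist, which gave 68 of 24411 symbols. Of these, 54 lie in the Hist1 cluster on chromosome 13, 10 in the Hist2 cluster on chromosome 3, 3 in the Hist3 cluster on chromosome 11, and Hist4h4 stands alone on chromosome 6 (GRCm38). By family, 6 are linker histone H1 genes, 18 are H2A, 19 are H2B, 12 are H3 and 13 are H4 genes. Their reads were counted in bulk RNA sequencing of mouse cerebellum at postnatal day 18, in 3 replicates of wild-type mice (WT) and 3 replicates of mice that lack the remote enhancer of Atoh7 (KO). Atoh7 encodes a proneural transcription factor known from the genesis of retinal ganglion cells, and the series is about the role of its regulatory element there. All 6 libraries share the age and the tissue. The labels call the replicates independent and give neither strain nor sex, nor say whether tissue was pooled or whether the deletion was homozygous.

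Chromatin wraps DNA around a core of H2A, H2B, H3 and H4, and linker histone H1 binds where the DNA enters and leaves the core. Most cluster genes are read during S phase, when new DNA has to be packed, and their RNA is unusual: it ends in a short stem-loop instead of a poly(A) tail and is lost when replication stops. In cells that have stopped dividing, some cluster genes are instead read through the stem-loop to a downstream signal and end in a poly(A) tail. Replacement histones, made by genes outside the clusters, are read throughout the cell cycle and build up in neurons. In the cerebellum the granule cell progenitors are the main dividing population after birth, and they finish dividing around the third week.

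WT replicate 3 stood apart. Rn45s, the ribosomal RNA precursor, took 63.2% of its gene reads against 1.28% to 3.04% elsewhere. That left 6015125 reads on other genes, where the other libraries had 26021719 to 33940607. WT replicate 1 had 31134 reads on Xist, which is made from an inactive X chromosome, and no other library had more than 10. Reads that met no exon on the counted strand made up 32.0% to 38.5% of WT and 17.1% to 17.6% of KO libraries. Atoh7 itself was at 1.64 ± 0.510 counts per 1e+06 library reads (CPM) in WT and 1.58 ± 0.559 in KO (SD, n = 3 each), which checks no label, since the deleted element is remote from the gene. The tissue entry of the labels reads retina, while the design reads cerebellum. Of the retinal markers, Crx had no reads and the highest, Rlbp1, was at 4.95 to 8.20 CPM, whereas the lowest level of the Purkinje cell markers Itpr1, Car8 and Calb1 was 409 CPM.

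KO and WT differed in few of these genes, and in one direction. Of the 68 members, 54 had enough reads to be tested. In KO, 5 rose and none fell at an adjusted p under 0.05 (edgeR quasi-likelihood test, p-values adjusted over all 15519 tested genes by the Benjamini-Hochberg method). The 5 are the H2A gene Hist3h2a, the H2B gene Hist3h2ba, the H4 genes Hist2h4 and Hist4h4 and the H1 gene Hist1h1a. They make up 9.26% of the tested members, where 6.43% of all tested genes were higher in KO, so the share lies near the background. For lower calls the background was 10.2%, against 0 of 54 here. At an unadjusted p under 0.05 there were 12 members, 1 of them lower (Hist2h2be). DESeq2 called 6 higher and 0 lower, where 7.47% of all tested genes were higher. With limma-voom and quality weights 10 were higher and 0 lower, where 10.9% of all tested genes were higher. Log2 fold changes, KO minus WT throughout, were above 0 in 30 members and below in 24, with a median of 0.02 where all tested genes had -0.01. All 3 KO libraries lay above all 3 WT libraries in 11 members, or 20.4% (18.9% of all tested genes), and below them in 2, or 3.70% (20.5% of all tested genes). Without WT replicate 3, 9 members were higher, or 16.7%, and none lower, where the backgrounds were 10.2% and 13.2%. Without KO replicate 3, Hist3h2a was the 1 member still higher, where the share over all tested genes also dropped, to 1.56%.

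All 3 genes of the Hist3 cluster were higher in each KO library than in each WT library, and 2 of them rose. Over all tested genes, 18.9% showed that order and 6.43% were called higher. Hist3h2a, an H2A gene on the plus strand (chromosome 11, 58954685 to 58956830), was at 30.9, 33.9 and 34.4 CPM in WT replicates 1 to 3 and at 47.9, 45.1 and 49.6 CPM in KO replicates 1 to 3. Every KO library was above every WT library. The log2 fold change was 0.53 (SE 0.07, edgeR adjusted p = 0.00114), a ratio of 1.44, and it passed the threshold in 16 of 16 alternative analyses, at 0.48 to 0.60. Hist3h2ba, an H2B gene within 10 kb upstream on the same strand (58948920 to 58949533), was at 17.9, 21.5 and 21.1 CPM in WT and 25.3, 26.6 and 23.9 CPM in KO. Here too the groups did not overlap, with a log2 fold change of 0.34 (SE 0.09, edgeR adjusted p = 0.0317) and a ratio of 1.26, which passed in 10 of 16 alternatives. The call was lost without WT replicate 1 (edgeR adjusted p = 0.105) and without KO replicate 1, 2 or 3 (edgeR adjusted p = 0.0891, 0.121 and 0.0750). Between them lies Hist3h2bb-ps, annotated as a processed pseudogene on the minus strand. Its levels were 4.85, 6.19 and 5.27 CPM in WT and 6.64, 7.32 and 6.61 CPM in KO, again without overlap, but the change of 0.33 did not pass (SE 0.13, edgeR adjusted p = 0.110). Summed over the 3 genes, the cluster was at 53.7, 61.5 and 60.8 CPM in WT and at 79.8, 79.0 and 80.1 CPM in KO. The nearest other tested gene, Trim17, overlaps Hist3h2a on the same strand and had a log2 fold change of 0.23 (SE 0.17, edgeR adjusted p = 0.398) at mean levels of 1.97 CPM in WT and 2.24 CPM in KO.

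The starts of the cluster's protein-coding genes are shown because both rose. RefSeq (GRCm38.p6) gives for each 250 bases before and 50 after the start, here with every CCAAT box (CCAAT or its reverse complement) and every octamer (ATTTGCAT or its reverse complement) in capitals. The window of Hist3h2a is chr11:58954435-58954734, and it begins inside the model of the pseudogene. That of Hist3h2ba is chr11:58948661-58948960, and both read along the plus strand. The window of Hist4h4 (chr6:136804382-136804681, minus strand), an H4 gene that also rose, is set beside them and holds neither motif.
Hist3h2a: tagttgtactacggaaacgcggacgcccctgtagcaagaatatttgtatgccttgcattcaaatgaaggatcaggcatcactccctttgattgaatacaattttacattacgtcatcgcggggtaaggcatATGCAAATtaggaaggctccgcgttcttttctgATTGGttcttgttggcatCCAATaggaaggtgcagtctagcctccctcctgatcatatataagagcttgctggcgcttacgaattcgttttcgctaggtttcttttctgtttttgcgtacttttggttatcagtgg
Hist3h2ba: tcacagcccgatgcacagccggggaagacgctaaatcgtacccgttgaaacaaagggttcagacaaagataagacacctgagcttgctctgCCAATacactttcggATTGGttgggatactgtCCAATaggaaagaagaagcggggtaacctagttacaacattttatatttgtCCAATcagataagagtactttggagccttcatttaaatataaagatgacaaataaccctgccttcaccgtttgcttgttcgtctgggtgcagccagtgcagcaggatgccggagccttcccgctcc
Hist4h4: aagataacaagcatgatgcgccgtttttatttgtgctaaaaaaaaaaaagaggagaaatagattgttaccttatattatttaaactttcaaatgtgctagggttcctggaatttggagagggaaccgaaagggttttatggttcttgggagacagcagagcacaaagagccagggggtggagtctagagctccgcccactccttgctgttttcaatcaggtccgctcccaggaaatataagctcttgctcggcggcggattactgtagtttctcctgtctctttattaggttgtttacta
The octamer is the site of the transcription factor Oct1, encoded by Pou2f1, and is known from H2B genes, while CCAAT boxes are bound by NF-Y. A match in these letters is a description only.

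**Figure D1:**
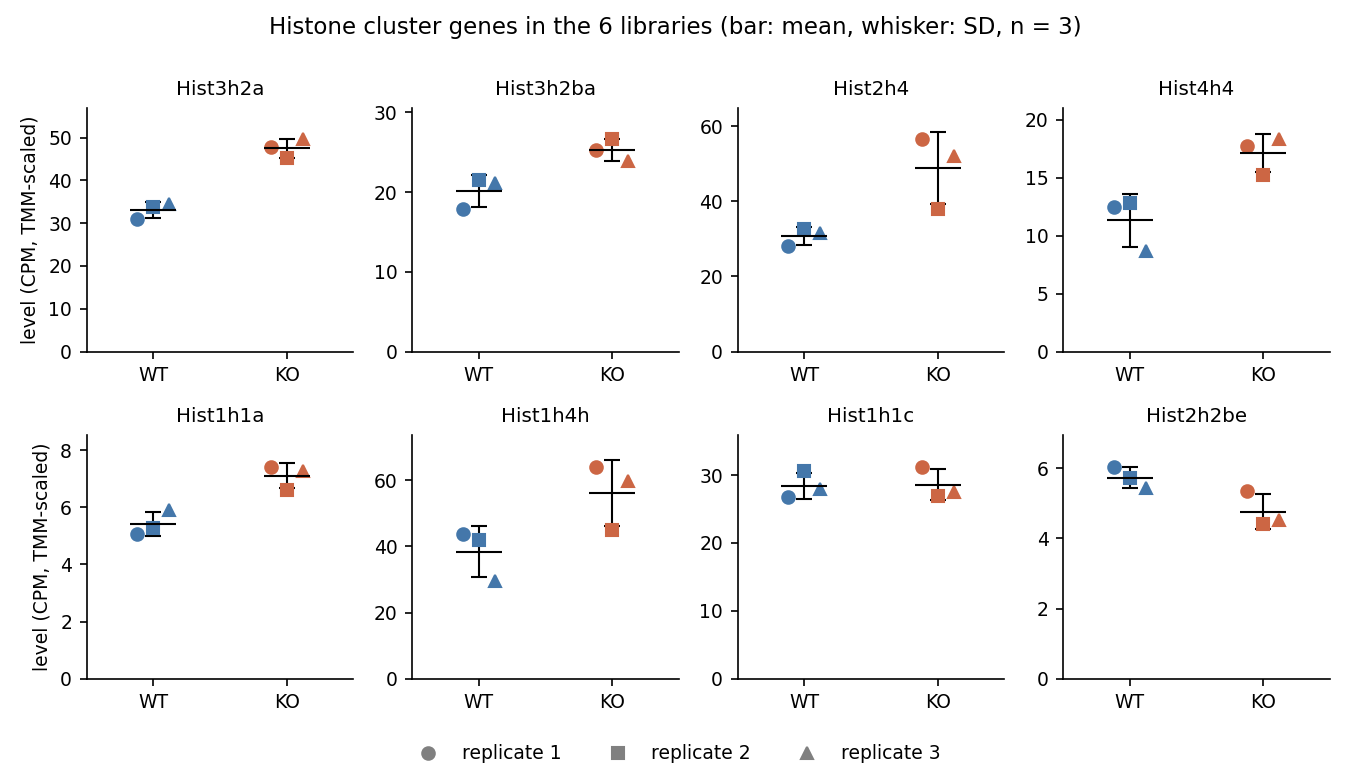
Levels of 8 histone cluster genes in CPM, counts per 1e+06 reads of a library size scaled with TMM (trimmed mean of M values), with 1 point per library, a bar for the mean and a whisker for the SD (n = 3). In Hist3h2a, Hist3h2ba, Hist2h4, Hist4h4, Hist1h1a and Hist1h4h all 3 KO libraries lie above all 3 WT libraries, in Hist2h2be they lie below, and in Hist1h1c the groups overlap.

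The H4 genes leaned one way as a family. Canonical H4 genes encode the same protein, so they differ mainly outside the coding sequence. Of 12 tested, all 12 had a log2 fold change above 0, from 0.07 to 0.68 with a median of 0.28. Of all tested genes 49.2% were above 0, and of the 286 other tested protein-coding genes with 1 exon 181 were. In 6 of the 12 the KO libraries lay above the WT libraries, where 18.9% of all tested genes did so. The test was passed by 2, where 6.43% of all tested genes were higher. Summed, the 13 H4 genes were at 187, 188 and 208 CPM in WT and 274, 212 and 261 CPM in KO. KO replicate 2 was thus barely above WT replicate 3. H4 genes took 42.6%, 40.6% and 39.5% of the histone cluster reads in WT and 46.3%, 43.0% and 46.9% in KO. The lean rests partly on single libraries: without WT replicate 1 the number above 0 was 10 of 12, and without WT replicate 2 it was 11 of 12.

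Hist2h4, on the minus strand of chromosome 3 (96261682 to 96263311), had the highest log2 fold change of the tested members. It was at 28.0, 32.6 and 31.5 CPM in WT and at 56.5, 38.0 and 52.1 CPM in KO. The groups did not overlap, and KO replicate 2 sat much nearer to WT than the other KO libraries. The change was 0.68 (SE 0.14, edgeR adjusted p = 0.0153), a ratio of 1.60. It kept its direction in all 16 alternatives, and it lost the call without WT replicate 3 (edgeR adjusted p = 0.0816) and without KO replicate 3 (edgeR adjusted p = 0.0568). Its tested neighbours within 10 kb, Hist2h3b and Hist2h2bb, did not pass, with log2 fold changes of 0.32 and 0.09.

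Hist4h4, on the minus strand of chromosome 6 (136801553 to 136804415), was at 12.4, 12.8 and 8.68 CPM in WT and 17.8, 15.3 and 18.3 CPM in KO. WT replicate 3 was the lowest and the groups did not overlap. The log2 fold change was 0.53 (SE 0.13, edgeR adjusted p = 0.0191), a ratio of 1.45, and it passed in 12 of 16 alternatives. Without KO replicate 1 the edgeR adjusted p was 0.0741 and without KO replicate 3 it was 0.0951. The neighbours H2afj, a replacement H2A gene, and Wbp11, a splicing factor gene, had log2 fold changes of 0.08 and 0.15, and neither passed.

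Hist1h4h (chromosome 13, 23531050 to 23531519) was the most abundant member per length in counted reads. It was at 43.8, 41.9 and 29.6 CPM in WT and 64.0, 44.9 and 59.6 CPM in KO. The groups did not overlap, but the spread within them was wide, and the log2 fold change of 0.51 did not pass (SE 0.17, edgeR adjusted p = 0.0865). Hist1h4d showed how far 1 library can decide a value. It was at 39.1, 40.0 and 70.1 CPM in WT and 55.5, 45.7 and 50.7 CPM in KO, so WT replicate 3 was above every KO library and the other WT libraries below. With all libraries its log2 fold change was 0.09 (SE 0.23, edgeR adjusted p = 0.838). Without WT replicate 3 it was 0.36 (SE 0.08, edgeR adjusted p = 0.00651). Hist1h4c was at 26.7, 26.2 and 36.6 CPM in WT and 37.1, 30.3 and 34.4 CPM in KO, with WT replicate 3 again above the other WT libraries but below KO replicate 1. Its log2 fold change of 0.23 did not pass with all libraries (edgeR adjusted p = 0.238) and was 0.36 without WT replicate 3 (edgeR adjusted p = 0.00941). Hist1h4k and Hist1h4f, with log2 fold changes of 0.26 and 0.41 and no overlap between groups, missed the threshold (edgeR adjusted p = 0.0957 and 0.0566).

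**Figure D2:**
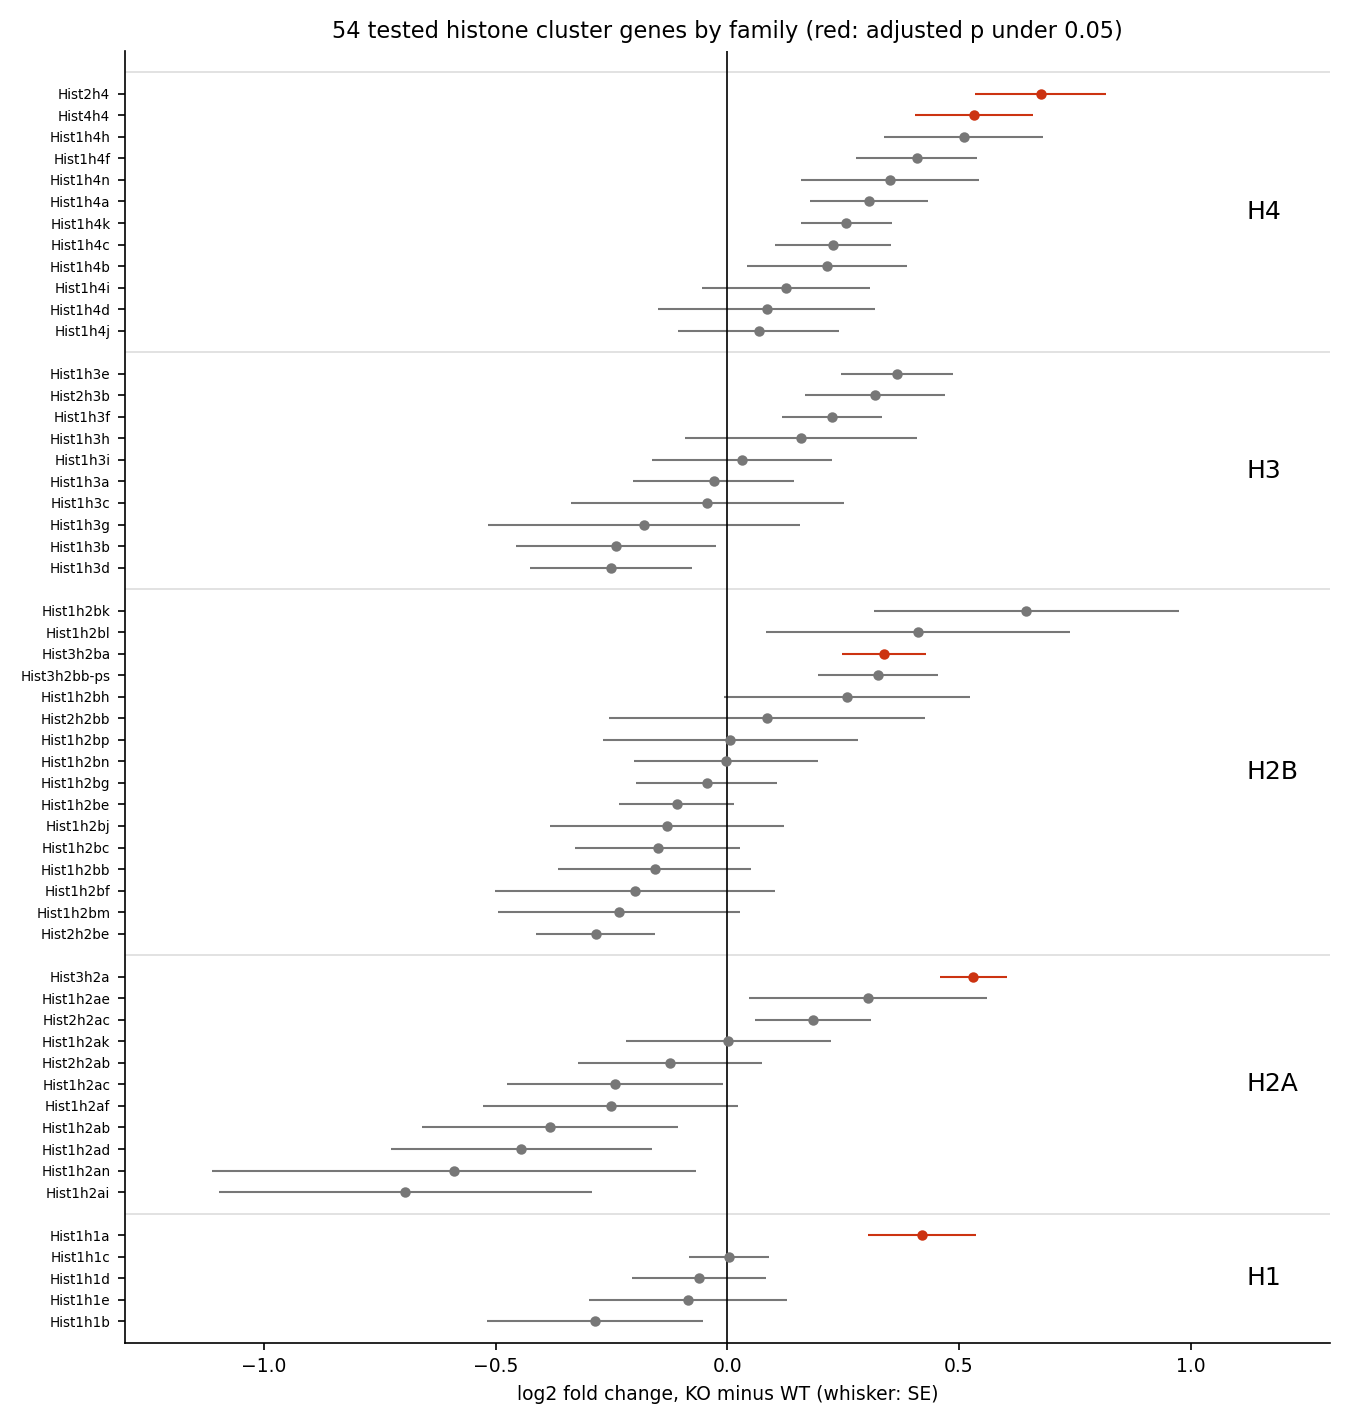
Log2 fold change of KO over WT (points) with its SE (whiskers) for the 54 tested histone cluster genes, grouped by family, with the 5 genes whose edgeR adjusted p is under 0.05 in red. The 12 H4 genes lie to the right of 0, from 0.07 to 0.68, and 7 of 11 H2A genes lie to the left.

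None of the 10 tested H3 genes passed, and 5 were above and 5 below 0, with a median log2 fold change of 0.00. Hist1h3e had the largest, 0.37 (SE 0.12, edgeR adjusted p = 0.0638). Its levels were 11.4, 12.7 and 8.37 CPM in WT and 15.0, 13.7 and 14.9 CPM in KO, which did not overlap, with WT replicate 3 lowest. Hist1h3d and Hist1h3b, at the other end of the family, had log2 fold changes of -0.25 and -0.24 with overlapping groups.

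Apart from the Hist3 genes, no H2A or H2B gene passed. The 11 tested H2A genes had a median log2 fold change of -0.24, and 4 of them were above 0. With the log2 ratio of reads that met no exon to gene reads other than Rn45s in the model, that median turned to 0.39. It was -0.10 without WT replicate 3 and -0.13 without WT replicate 2. Most of these are scarce: of the 7 below 0, Hist2h2ab had the highest mean level in WT, 3.08 CPM. In Hist1h2ad the KO libraries lay below the WT libraries, at 0.545, 0.505 and 0.771 CPM against 0.784, 0.804 and 1.08 CPM, with a log2 fold change of -0.44 (SE 0.28, edgeR adjusted p = 0.303). The 16 tested H2B genes had a median of -0.02. Hist2h2be, whose RNA is known to carry a poly(A) tail in differentiated cells, was the other member with KO below WT. It was at 6.04, 5.72 and 5.42 CPM in WT and 5.34, 4.42 and 4.53 CPM in KO, and its log2 fold change of -0.28 did not pass (SE 0.13, edgeR adjusted p = 0.152). Hist1h2bc was at 16.4, 17.9 and 28.7 CPM in WT and 19.0, 17.0 and 17.5 CPM in KO, with WT replicate 3 far above the rest, and had a log2 fold change of -0.15 (SE 0.18, edgeR adjusted p = 0.607). Hist2h2bb was at 7.43, 8.20 and 19.4 CPM in WT and 10.7, 11.6 and 9.93 CPM in KO. Its log2 fold change was 0.09 (edgeR adjusted p = 0.891) with all libraries and 0.46 without WT replicate 3 (edgeR adjusted p = 0.00761).

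Of the linker histones, Hist1h1a rose and the 4 other tested genes did not pass. Hist1h1a (chromosome 13, 23763666 to 23764406) was at 5.08, 5.29 and 5.89 CPM in WT and 7.42, 6.61 and 7.28 CPM in KO, without overlap. The log2 fold change was 0.42 (SE 0.12, edgeR adjusted p = 0.0343), a ratio of 1.34. This call was the least stable of the 5. It passed in 8 of 16 alternatives and was lost without any 1 of the libraries other than WT replicate 3. Its neighbours Hist1h4a, Hist1h4b and Hist1h3a had log2 fold changes of 0.31, 0.21 and -0.03, and none passed. Hist1h1c, an H1 gene known to be read in non-dividing cells too, was at 26.8, 30.6 and 27.9 CPM in WT and 31.2, 27.0 and 27.5 CPM in KO. The groups overlapped, and the log2 fold change was 0.00 (SE 0.09, edgeR adjusted p = 0.982). Hist1h1e was at 33.0, 38.4 and 54.6 CPM in WT and 45.6, 38.3 and 31.0 CPM in KO, again with WT replicate 3 highest, and had a log2 fold change of -0.08 (SE 0.21, edgeR adjusted p = 0.823). The testis gene Hist1h1t had 16 reads in all, and the testis genes Hist1h2aa and Hist1h2ba had 0.

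WT replicate 3 gave the highest value of the 6 libraries for 22 of the 54 tested members and the lowest for 14. Over all tested genes it was the highest for 30.1% and the lowest for 32.5%. KO replicates 1 and 3 were the highest for 14 and 12 members, and KO replicate 2 for 2. WT replicate 3 had the fewest reads on the members, 3402, against 14981 to 23113 in the others, so its counting error is the widest.

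Per kilobase of annotated exon, an H4 gene was the most abundant member in counted reads. Hist1h4h led with 81.8 ± 16.4 CPM per kb in WT and 120 ± 21.3 in KO (SD, n = 3 each). Hist1h4d followed with 43.7 ± 15.5 and 44.5 ± 4.28, then Hist1h4c with 36.4 ± 7.13 and 41.4 ± 4.19, and Hist3h2ba with 32.8 ± 3.20 and 41.2 ± 2.17. These last 3 did not differ in order beyond their spread. Hist2h4 ranked 7, at 18.8 ± 1.46 in WT and 29.99 ± 5.92 in KO, and Hist3h2a ranked 9, at 15.4 ± 0.870 and 22.1 ± 1.04. Hist1h1a ranked 23 and Hist4h4 28 of the 68. Annotated lengths weigh on this order, since Hist4h4 is drawn over 2863 bases and Hist1h4h over 470 bases. So do copies, since reads that match several places are not counted. Hist1h4k ranked 5, at 28.4 ± 2.12 in WT and 33.4 ± 1.03 in KO. Of its 100-base words, 64.3% also stand in another gene's transcript, against 0% in Hist1h4d and 14.0% in Hist1h4c. The order is thus one of counted reads only.

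Most of the genes that rose share features of their annotated ends, and members that did not pass have them too. Histone RNAs that end without a poly(A) tail carry a stem-loop, bound by the stem-loop binding protein encoded by Slbp. The letters searched were GG, 2 free bases, CTTTT, 1 free base, AG, 2 free bases and CC, on the transcript strand of the GENCODE transcripts (release M21, GRCm38), and they occurred in 44 of the 68 members and in 0.0814% of 55271 other genes. The sequences of 6 members are shown with these letters in capitals, since their genes contrast in what follows the stem-loop. They lie at chr11:58955167-58955192 (plus strand, Hist3h2a), chr11:58949344-58949369 (plus, Hist3h2ba), chr3:96262934-96262959 (minus, Hist2h4), chr6:136803993-136804018 (minus, Hist4h4), chr13:23531453-23531478 (plus, Hist1h4h) and chr13:23739507-23739532 (plus, Hist1h1c).
Hist3h2a: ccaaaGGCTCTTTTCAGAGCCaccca
Hist3h2ba: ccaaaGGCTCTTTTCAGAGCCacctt
Hist2h4: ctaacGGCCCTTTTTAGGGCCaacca
Hist4h4: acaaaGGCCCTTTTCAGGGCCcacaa
Hist1h4h: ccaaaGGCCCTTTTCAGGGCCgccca
Hist1h1c: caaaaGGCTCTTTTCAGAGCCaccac
Hist3h2a, Hist3h2ba and Hist1h1c share the same 16 letters, and so do Hist4h4 and Hist1h4h. The annotated transcript goes on past these shown runs, so that the count from the end of the 16 letters to the end of the model is 1643 bases in Hist3h2a, 169 in Hist3h2ba, 1257 in Hist2h4, 2445 in Hist4h4 and 840 in Hist1h1c, against 46 in Hist1h4h. The model of Hist1h1a, 741 bases long, holds no such letters, and letters past its end would not be seen.

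A model that runs more than 100 bases past the stem-loop was found in 22 members, of which 19 were tested. In these, 4 genes rose (Hist3h2a, Hist3h2ba, Hist2h4 and Hist4h4), none fell, and the median log2 fold change was 0.13, where 6.43% of all tested genes were higher. Of the 22 members whose model ends within 100 bases, 16 were tested, none passed, and the median was -0.04. Of the 24 without the letters, 19 were tested, Hist1h1a rose, and the median was 0.00. Some of these models are short, as in Hist1h2bl (381 bases), Hist1h4k (312 bases) and Hist1h1a (741 bases). Letters past the annotated end would not be seen, so this group is not shown to lack a stem-loop. This limit of 100 bases was chosen after the values were seen. The groups also differ in level. Members with the longer ends summed to 272 to 382 CPM per library, and those with the shorter ends to 73.0 to 108 CPM. A change of the same size passes more easily at a higher level. Without WT replicate 3 the 3 groups held 6, 0 and 3 higher genes, with medians of 0.21, 0.00 and 0.06, where 10.2% of all tested genes were higher. Hist2h4 was then no longer among them, and Hist1h4k and Hist2h2bb joined Hist1h1a among those without the letters. AATAAA, the main signal for a poly(A) tail, stood in the last 50 bases of an annotated transcript in 15 of the 68 members. It was more common in the 21810 other protein-coding genes, at 65.9%. Models that end early cannot show it. Of the 15 members, 11 were tested and the same 4 genes rose (background 6.43%), with a median log2 fold change of 0.30. Of the 43 tested members without it, Hist1h1a rose, and the median was 0.00. This split did not hold across settings: without WT replicate 3, 3 genes with the signal and 6 without it were higher. With the log2 ratio of reads that met no exon added to the model, Hist3h2a was the 1 of 5 higher genes that has the signal. Length past the stem-loop did not order the changes by itself, since Hist1h1d, Hist1h1e and Hist1h2be have long ends and log2 fold changes of -0.06, -0.08 and -0.11.

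**Figure D3:**
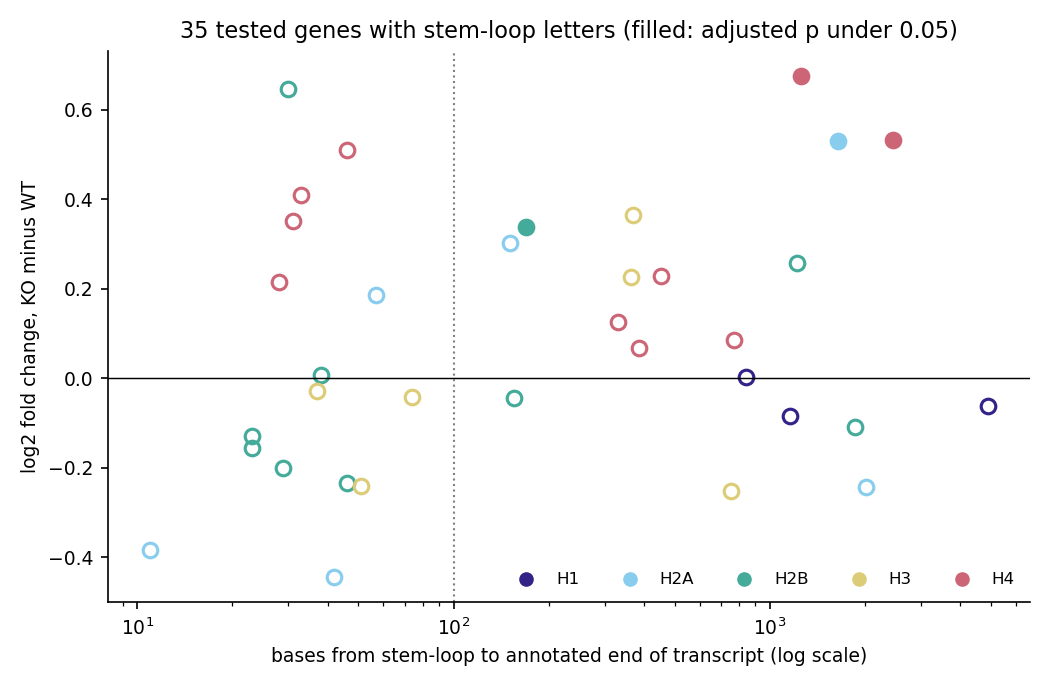
Bases from the end of the stem-loop letters to the end of the annotated transcript (log scale) against the log2 fold change of KO over WT, with 1 point for each of the 35 tested members that hold the letters, coloured by family and filled where the edgeR adjusted p is under 0.05. The 4 filled points lie right of the dotted line at 100 bases, and the genes to the left of it spread on both sides of 0.

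The histone genes commonly described as polyadenylated in differentiated cells split. These are Hist1h1c, Hist1h2ac, Hist1h2bc, Hist2h2be, Hist3h2a, Hist3h2ba and Hist4h4. Of the 7, 3 rose (Hist3h2a, Hist3h2ba and Hist4h4) and none fell, where 6.43% of all tested genes were higher. These 3 calls are among those already described. The median log2 fold change of the 7 was 0.00. Hist1h2ac, the scarcest, was at 1.45, 1.24 and 1.24 CPM in WT and at 0.934, 1.03 and 1.40 CPM in KO.

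The starts of the genes differed by family in their motifs. RefSeq windows of 300 bases were found for 62 members, in 63 windows, and no motif overlapped another in them. CCAAT, on either strand, stood before all 6 H1, 18 H2A, 16 H2B and 10 H3 genes that had a window but before 3 of 12 H4 genes, and in 37.4% of 32851 promoters of all genes. ATTTGCAT stood in 7 of 18 H2A and 7 of 16 H2B genes, in none of the H1, H3 and H4 genes, and in 1.74% of all promoters. AAACACA, known from H1 promoters, stood in 5 of 6 H1 genes and in 7.18% of all promoters. Hist1h1a, the H1 gene that rose, is the 1 without it. TATAAA stood in 55.6% of the members' windows and 13.6% of all promoters.

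The summed level of the clusters is one sign of how much RNA without a poly(A) tail a library holds, although some members can carry a tail. Members took 0.0553%, 0.0576% and 0.0566% of the gene reads other than Rn45s in WT and 0.0709%, 0.0602% and 0.0681% in KO. The exact binomial 95% intervals, which cover counting error only, were 0.0547% to 0.0585% for WT replicate 3, with the fewest reads, and 0.0593% to 0.0610% for KO replicate 2, the lowest KO library. All KO libraries were above all WT libraries on this measure. In summed CPM, scaled by TMM, the groups overlapped, at 439, 464 and 527 in WT and 591, 493 and 557 in KO. WT replicate 3, with its excess of ribosomal precursor, stood between the other WT libraries in the first measure and above them in the second. Counted among all gene reads, its share was 0.0208%.

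Of 15 other tested genes for RNAs without a poly(A) tail, 2 rose (6.43% of all tested genes were higher) and none fell. Their median log2 fold change was -0.06, and 6 were above 0. Without WT replicate 3 the median was 0.14, 11 of the 15 were above 0, and Rn45s fell (log2 fold change -1.01, edgeR adjusted p = 0.000148). With all libraries Rn45s, highest by far in WT replicate 3, had -5.49 and did not pass (edgeR adjusted p = 0.185). Rmrp, the RNA of RNase MRP, was at 905, 778 and 924 CPM in WT and 907, 753 and 843 CPM in KO, and Rpph1, the RNA of RNase P, had a log2 fold change of -0.06 (edgeR adjusted p = 0.900). The 2 that rose were Rprl2 and Rprl3, copies of the RNase P RNA, at or under 0.155 CPM in each WT library and at 2.07 to 77.6 CPM in KO. By contrast, long RNAs known to stay in the nucleus were lower in KO. Of 9, 8 fell (10.2% of all tested genes were lower), Malat1 by 1.65 and Meg3 by 1.95 on the log2 scale. The sum of the 9 was 12652, 13623 and 17035 CPM in WT and 4963, 4366 and 4861 CPM in KO. This moved with the share of reads outside exons. The part of that share in the histone values was tested only by adding a log2 ratio to the model. The ratio sets reads that met no exon on the counted strand against gene reads other than Rn45s. With it, Hist3h2a kept its call (log2 fold change 0.60, edgeR adjusted p = 0.00462). The other 4 lost theirs: Hist4h4 had 0.16 (edgeR adjusted p = 0.599), Hist2h4 0.73 (edgeR adjusted p = 0.262), Hist3h2ba 0.41 (edgeR adjusted p = 0.0931) and Hist1h1a 0.56 (edgeR adjusted p = 0.0978). The share of reads that met no exon differed between the genotypes without overlap, so this ratio and the genotype cannot be told apart with 6 libraries.

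**Figure D4:**
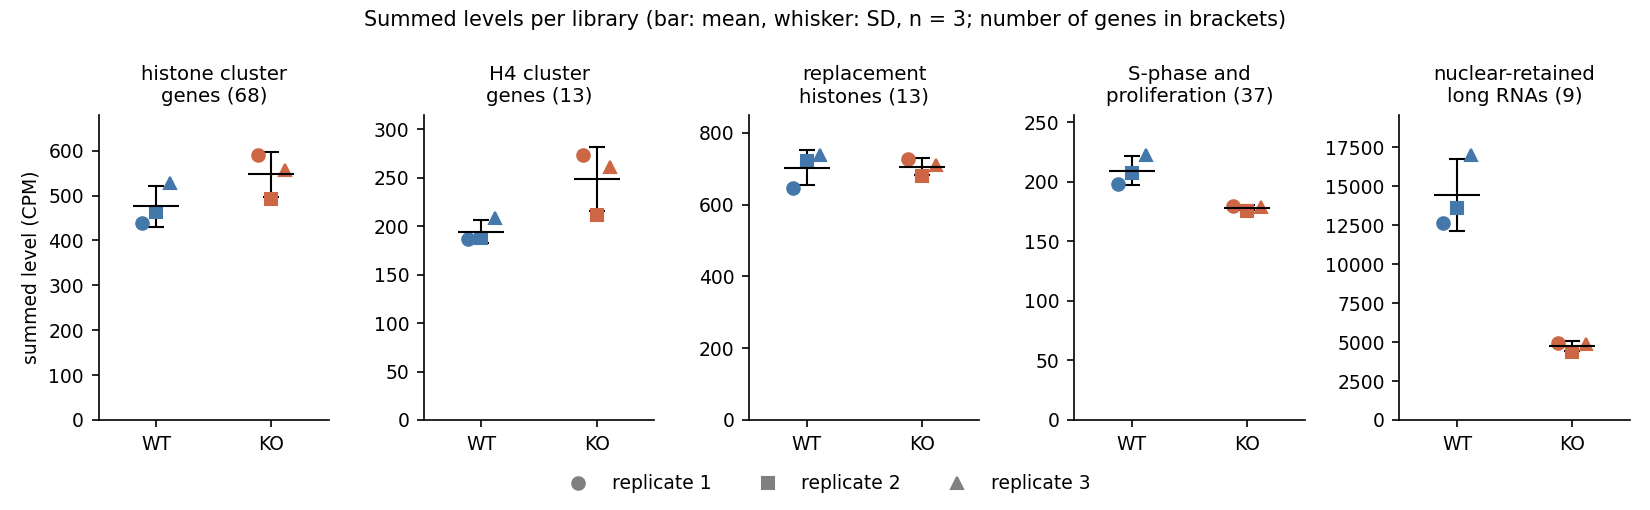
Summed CPM per library for all 68 histone cluster genes, the 13 H4 genes, 13 replacement histone genes, 37 genes of S phase and proliferation and 9 nuclear-retained long RNAs, with 1 point per library, a bar for the mean and a whisker for the SD (n = 3). The H4 sum is higher in each KO library than in each WT library, the S-phase and nuclear-retained sums are lower, and the other 2 sums overlap.

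Among genes of S phase and proliferation, several were lower in KO. Of 37 tested, 7 fell (10.2% of all tested genes were lower) and none rose, with a median log2 fold change of -0.23. They summed to 198, 207 and 223 CPM in WT and 179, 176 and 179 CPM in KO, without overlap. Ccnb2, a mitotic cyclin, fell by 1.20 on the log2 scale, Top2a, the topoisomerase of dividing cells, by 0.92, and Pola1, a subunit of DNA polymerase alpha, by 0.61. Mki67, a marker of cycling cells, had a log2 fold change of -0.58 and did not pass (edgeR adjusted p = 0.0603), and Pcna, the sliding clamp, one of 0.05. Granule cell progenitor genes (11 tested) and dividing glial progenitor genes (10 tested) had no gene past the threshold, with medians of -0.06 and 0.01. Atoh1, the factor that defines granule cell progenitors, was at or under 0.169 CPM in each library. Among markers of other cell types, most of those of vessels and meninges moved with genotype: vessels, 4 of 5 lower, which summed to 168 to 192 CPM in WT and 118 to 127 CPM in KO, and meningeal fibroblasts, 3 of 4 lower, which summed to 184 to 300 CPM in WT and 133 to 151 CPM in KO. Oligodendrocyte markers shifted the other way without a call: none of 5 passed, but their median log2 fold change was 0.28. In 4 of 5 all KO libraries lay above all WT libraries, where 18.9% of all tested genes did so. The 5 markers summed to 21482 to 24575 CPM in WT and 27373 to 29467 CPM in KO. Without WT replicate 3, 2 of the 5 were higher, with a median of 0.17. Single markers passed for granule neurons (1 of 6, lower), Purkinje cells (1 of 6, higher) and microglia (1 of 5, higher), and none for astrocytes or choroid plexus. All 6 granule neuron markers had a log2 fold change below 0, with a median of -0.28, while their summed levels overlapped between the groups. Without WT replicate 3 none of these 6 passed. The part of these cells in the histone values was not tested. In bulk tissue, fewer cells of a type and less RNA per cell cannot be told apart.

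Some factors that make histone RNA were lower in KO, where 10.2% of all tested genes were. Of 30 tested genes of histone gene transcription and 3′ processing, 5 fell and 1 rose, with a median of -0.10. Npat, the coactivator of cluster genes, fell by 0.26, Pou2f1, which binds the octamer, by 0.45, and Cstf2, a cleavage factor subunit, by 0.37 on the log2 scale. Gon4l fell by 0.26 and Wdr33, which binds AATAAA, by 0.21, while Ctif, a translation factor for stem-loop RNAs, rose by 0.27. Slbp had a log2 fold change of 0.11 and did not pass (edgeR adjusted p = 0.409). Of 25 tested histone chaperone and chromatin assembly genes, 3 fell, also near that background: Atrx by 0.58, Ubn1 by 0.32 and Cabin1 by 0.31. Nasp, a chaperone of H1 and H3, had -0.81 and did not pass (edgeR adjusted p = 0.117).

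Replacement histones, made outside the clusters, had no gene past the threshold. Over the 11 tested, the log2 fold changes ran from -0.15 to 0.16 with a median of 0.04. The 13 counted genes summed to 647, 720 and 739 CPM in WT and 726, 679 and 712 CPM in KO. This is more than the counted level of all 68 cluster genes together, which leaves out reads from near-identical copies. Neither sum is scaled by length, so the 2 kinds of histone RNA are not ranked by them. H3f3b was the most abundant, with 200, 238 and 258 CPM in WT and 226, 215 and 213 CPM in KO, followed by H3f3a, the other H3.3 gene, and H1f0, the linker histone of resting cells. As a second comparison, the other 286 tested protein-coding genes with 1 exon, the structure of 63 of the 68 members, had 12 genes higher and 17 lower. Their median log2 fold change was 0.07, with 181 above 0 and 105 below.

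Sequence copies limit what could be counted. In 11 members no library had a read. Of these, 9 are outside the testis genes, and 32.9% to 100% of their 100-base words, with a median of 92.2%, also stand in a transcript of another gene. For the tested members the median was 29.55%. Reads from such copies have several places in the genome and are left out of the counts, so 0 reads do not show that these genes are silent. Over the whole genome, such reads made up 6.97% to 7.85% of all reads in WT and 8.84% to 9.83% in KO. The part of this difference in the values of members with copies was not tested. Hist2h2aa2 had all of its words shared, while Hist1h4m shared 88.1%, most with Hist1h4n. Sharing did not order the counts by itself. Hist2h3c1 had 0 reads with 32.9% of its words shared, while Hist1h4n had 775 reads in all with 80.7% shared. The gene models behind the counts are not given and may differ from those used here. The reason for the 0 counts was not tested. The rising genes are nearly free of copies: 0% of words were shared in Hist3h2a, Hist2h4 and Hist1h1a, 4.5% in Hist4h4 and 4.9% in Hist3h2ba. In Hist1h4h the share was 38.5%. Reads that fall in more than 1 gene are also left out, which touches Hist1h1e and Hist1h2be, whose models overlap on the same strand, and Hist3h2a with Trim17.

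**Figure D5:**
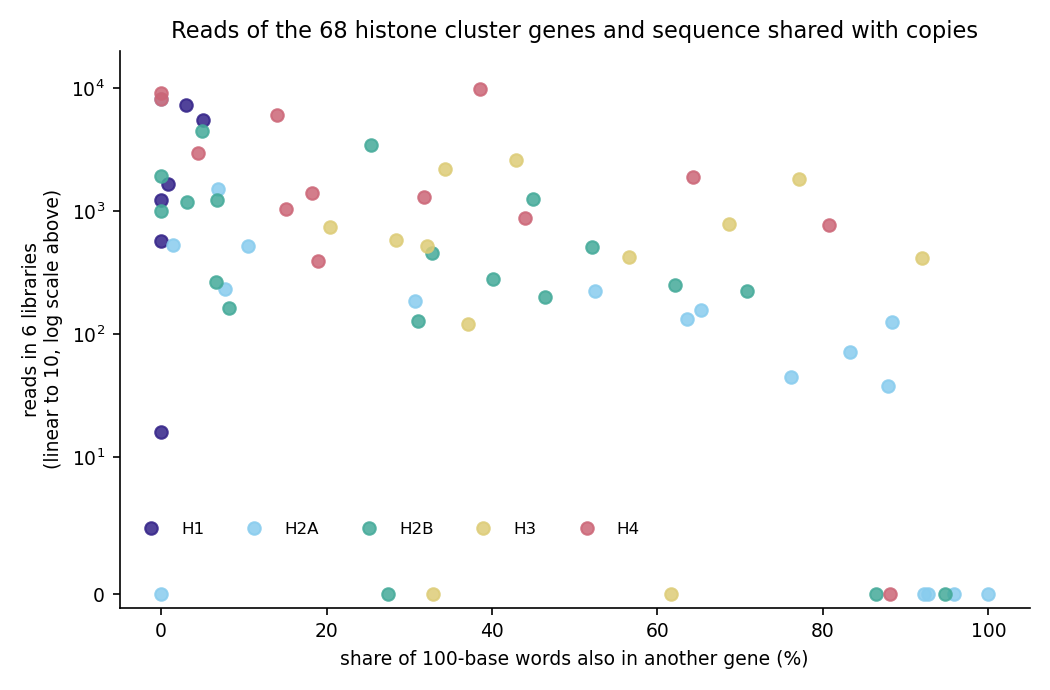
Share of 100-base words of each of the 68 members that also stand in another gene's transcript (x axis, %) against its reads in the 6 libraries together (y axis, linear to 10 and log above), coloured by family. All but 4 of the 11 members without reads share over 80% of their words.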

How the data were processed

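The authors deposited raw counts of reads per gene, not normalized, in 1 table per library. Reads were trimmed with Trimmomatic and aligned with STAR on mm10, per the submitters' processing notes. For tool versions, annotation, strandedness and batches, the sources used here give nothing. The table of KO replicate 3 carries another name prefix than those of the other KO replicates, and its sample title was followed. Each table has a count column without regard to strand and 1 for each strand, after 4 summary lines that were left out of library sizes. Column 4 was used, since reads on the opposite strand were 1.77% of the gene reads and 1.17% of the members' reads. In such tables, reads with several places in the genome or in more than 1 gene are not counted, so near-identical copies are uncertain. Gene reads were 16340132 to 34438262 per library, and a count of 3 equals 0.0723 to 0.465 CPM.

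Genes were filtered with filterByExpr and scaled by TMM. KO was compared with WT over all tested genes with the quasi-likelihood test of edgeR 4.0.16 in R 4.3.3 (robust glmQLFit, then glmQLFTest), Benjamini-Hochberg adjustment and a threshold of 0.05. The SE is approximate: the size of the log2 fold change over the root of F. The script was tested on simulated counts. Alternatives used limma 3.58.1 and DESeq2 1.42.0. Replicate numbers did not pair the samples (correlations of deviations -0.164, -0.162 and -0.0843), so no block was used. With 3 samples a group, p-values measure only the spread between these samples.

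Gene models and transcripts were GENCODE M21 (GRCm38, the assembly mm10 denotes), matched by symbol for all 68 members; promoter windows were RefSeq's for GRCm38.p6. No protein sequences were used here. The members and the gene lists were chosen with earlier results of these data known. The text names every member past the threshold, the 12 members with the highest mean CPM, the polyadenylated and testis lists, up to 6 genes with the smallest p of each other list, Atoh7 and tissue markers. Other genes named were chosen after their values were seen.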

Additional observations from a re-analysis of the deposited data

Results flagged for a closer look

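Reads on the strand opposite Hist1h4h, which the main comparison leaves out, were 4, 8 and 3 in WT and 25, 24 and 23 in KO. They came to 72 over the KO libraries together and 15 over the WT libraries. In CPM they were 0.116, 0.248 and 0.465 in WT and 0.648, 0.606 and 0.554 in KO. They stood out among the 68 members because each KO library was above each WT library. On the counted strand, 18.9% of all tested genes showed this. The alternative with both strands counted together held these reads, but not apart from the others. They made up 0.489% of the gene's reads on both strands in WT and 1.06% in KO, and in WT replicate 3 they rest on 3 reads. Both shares lie below the general rate of opposite-strand reads, which was 1.17% over the members and 1.77% over all genes. The difference was not tested.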

How the results depend on the processing

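Calls depended on single libraries and on the model more than on scaling or filtering. Among all genes, 998 were higher and 1587 lower in KO. limma-voom gave 1695 higher, the read-assignment covariate 561 higher and 861 lower, and leaving out 1 library gave 245 to 1623 higher and 796 to 2096 lower. Among the members, 5 were higher. limma-voom gave 10, and leaving out 1 library gave 1 (without KO replicate 3) to 9 (without WT replicate 3), with 2 without KO replicate 1. Over all tested genes, the shares called higher in these settings were 10.9%, 1.56%, 10.2% and 2.27%, in that order. No member was lower in any of the 16 alternatives, where 0 or 1 was lower at an unadjusted p under 0.05. The same-numbered samples did not pair. With the replicate number as a block, 252 genes were higher and 821 lower, and 2 members were higher, Hist3h2a and Hist2h4. Under the covariate 5 members were higher, of which Hist3h2a is shared with the 5 above; the others were Hist1h4d, Hist1h2bc, Hist1h4c and Hist2h2bb.

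The number of H4 genes with a log2 fold change above 0 was 12 in 13 of the alternatives, 10 without WT replicate 1 and with the covariate, and 11 without WT replicate 2. The median over all 54 members turned negative with the block (-0.01) and without WT replicate 1 (-0.03), and was 0.22 with the covariate. The members' share of all gene reads was 0.0434% in WT and 0.0654% in KO as means of 3. It was 0.0565% and 0.0664% without Rn45s, so most of the gap in the first pair goes with Rn45s.

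Among the 15 members followed singly, signs turned only in 5 whose change was small beside its SE, and the cause was not tested. Leaving out 1 library moved Hist1h4d from -0.0564 (without WT replicate 1) to 0.359 (without WT replicate 3), Hist1h1e from -0.233 (without WT replicate 1) to 0.106 (without WT replicate 3), Hist1h1c from -0.0594 (without KO replicate 1) to 0.069 (without WT replicate 2), Hist1h2bc from -0.295 (without WT replicate 1) to 0.0624 (without WT replicate 3) and Hist2h2bb from -0.164 (without WT replicate 1) to 0.465 (without WT replicate 3). With limma-voom, Hist1h1e was at 0.0131, Hist1h1c at -0.0242 and Hist1h2bc at 0.00915. With the covariate they were at 0.426, -0.0249 and 0.456. Hist1h1c was at -0.00702 with upper quartile scaling and -0.00405 with a minimum of 1 CPM in 3 libraries, and Hist2h2bb at -0.0893 with DESeq2. Depth limits the scarce members most, since WT replicate 3 had 3402 reads on all of them together.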
